A study of Homo sapiens with 8 samples.

Results

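The genes described here are the 10 that cut, trim, carry and load peptides for MHC class I: the inducible proteasome subunits PSMB8, PSMB9 and PSMB10, the proteasome activator subunits PSME1 and PSME2, the peptide transporter subunits TAP1 and TAP2, the loading factor TAPBP, and the trimming peptidases ERAP1 and ERAP2. They were named as members of that pathway, not chosen for a measured value, and they are 10 of the 20033 protein-coding genes whose 5′ ends were examined. Each was described by the H3K4me3 peaks within 3 kb on either side of its 5′ end, the start of its MANE Select transcript in GENCODE release 44. H3K4me3, the trimethylation of lysine 4 on histone H3, marks active promoters. The ChIP-seq libraries came from U2OS, a human osteosarcoma line, as 3 wild-type (WT) clones and 3 clones with a knockout (KO) of ZBTB48, which binds telomeric repeats and some promoters through its zinc fingers. By the sample records all 6 clones had received interferon gamma (IFNγ) at 250 U/ml for 24 h. A figure legend of the study gives a longer treatment for tracks that include this mark. No untreated library was available, so every comparison is between genotypes under IFNγ. Each library came from a separate clone of its genotype, and effects of a clone and of the knockout cannot be told apart within 1 library. The series counts 8 samples, of which the 2 WT inputs were not used here. The deposited lists hold peaks and no read counts, so the depth behind each peak is unknown.

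MHC class I molecules show the cell surface peptides cut from its own proteins by the proteasome. Interferon gamma makes cells replace the constitutive catalytic subunits of the proteasome with inducible ones, forming the immunoproteasome, and raises the activator, transporter and loading factors along with it. TAP1 and TAP2 together form the channel that carries peptides into the endoplasmic reticulum, where TAPBP (tapasin) holds the empty class I molecule at the channel and ERAP1 and ERAP2 trim the peptides. PSMB8, PSMB9, TAP1 and TAP2 are neighbours inside the MHC class II region of chromosome 6, among genes that depend on the transactivator CIITA.

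The promoters shared a sequence that the choice of genes did not use. The interferon-stimulated response element (ISRE), to which interferon regulatory factors bind, was searched as the letters GAAA, any pair of bases and GAAA again, on both strands in the 250 bases before and the first 50 bases of each RefSeq start (GRCh38.p14). It was present at 9 of the 10 genes and at 3.12% of the 14576 promoters whose RefSeq start matched. Each match is given here on the strand of its gene with the matching letters in capitals, so that TTTC in place of GAAA means a match on the other strand. They are shown because they are what the promoters have in common.
TAP1: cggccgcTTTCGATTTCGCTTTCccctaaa
TAP2: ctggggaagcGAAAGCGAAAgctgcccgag
TAPBP: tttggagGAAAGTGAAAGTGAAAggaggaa
PSMB8: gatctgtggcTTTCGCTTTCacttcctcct
PSMB10: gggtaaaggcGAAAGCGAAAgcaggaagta
PSME1: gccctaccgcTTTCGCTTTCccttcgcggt
PSME2: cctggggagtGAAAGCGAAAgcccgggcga
ERAP1: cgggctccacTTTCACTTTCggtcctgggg
ERAP2: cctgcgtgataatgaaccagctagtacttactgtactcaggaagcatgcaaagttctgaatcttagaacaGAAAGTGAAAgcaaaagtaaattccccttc
Base −1 is the base before the start and base 1 the start itself. The matches lay close to the starts, at −134 to −119 in TAP1, −58 to −49 in TAP2, −20 to −5 in TAPBP, −4 to 6 in PSMB8, −21 to −12 in PSMB10, 6 to 15 in PSME1, −28 to −19 in PSME2, 3 to 12 in ERAP1 and −30 to −21 in ERAP2. In TAP1 and TAPBP the capitals are 2 overlapping matches. The stretches lie at chr6:32853816-32853845 (TAP1), chr6:32838778-32838807 (TAP2), chr6:33314076-33314105 (TAPBP), chr6:32844032-32844061 (PSMB8), chr16:67936852-67936881 (PSMB10), chr14:24136189-24136218 (PSME1), chr14:24146619-24146648 (PSME2), chr5:96807924-96807953 (ERAP1) and chr5:96876400-96876499 (ERAP2). PSME1 and ERAP2 are read on the plus strand and the other 7 on the minus strand. The annotation places an exon in each stretch except that of ERAP2. At TAP2 the exon belongs to the overlapping gene ENSG00000250264.

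PSMB9 had no ISRE match in its own window, but its 5′ end lies 488 bp from that of TAP1 on the opposite strand, and both genes start outward from 1 shared stretch. Most of that stretch, chr6:32853817-32854116 on the plus strand, holds no annotated exon and is shown in full because every library had a peak across it.
TAP1-PSMB9: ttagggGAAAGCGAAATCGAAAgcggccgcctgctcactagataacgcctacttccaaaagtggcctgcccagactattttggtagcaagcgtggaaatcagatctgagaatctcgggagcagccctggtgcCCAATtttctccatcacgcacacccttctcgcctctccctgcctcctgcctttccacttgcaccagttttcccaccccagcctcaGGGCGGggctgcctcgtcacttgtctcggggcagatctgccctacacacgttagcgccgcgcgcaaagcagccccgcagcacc
The capitals mark, from left to right, the overlapping pair of ISRE matches, a CCAAT box (CCAAT) and a GC box (GGGCGG). The ISRE pair lies 119 bases from the TAP1 start and 354 bases from the PSMB9 start, beyond the window of 250 bases searched for PSMB9. The letters TTAGGG, the telomere repeat, stand directly beside the pair. They occurred at 1 of the 10 genes, TAP1, and at 8.56% of all promoters.

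Other short motifs were not shared in this way. The gamma-activated site (GAS, TTCNNNGAA) was found at PSMB8 alone (1 of 10, against 6.66% of all promoters). A CCAAT box was found at TAP1, PSMB9 and ERAP1 (3 of 10, against 37.0%). The GC box was found at 7 of 10, against 62.6%. Of the class II genes that surround TAP1 and PSMB9, 8 could be searched, and 0 of 8 had an ISRE match while 8 of 8 had a CCAAT box. Nearer to the pathway, an ISRE match was found at 2 of 4 class I molecules searched (HLA-F and B2M), 1 of 9 non-catalytic core subunits (PSMB4) and 1 of 6 other peptidases (LAP3). The median GC content over the 10 windows was 63.7%, against 64% over all promoters searched, and that of ERAP2 was 40.3%. A match describes letters in a window and no factor was measured at these sites.

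The 6 lists held 21712 to 26370 peaks and were of 2 kinds, neither of which was a genotype. Median peak widths of 2297 and 2353 bp and median fold enrichments over background of 13.4 and 14 set WT replicates 1 and 2 apart. In WT replicate 3 and the 3 KO libraries the median width was 1275 to 1487 bp and the median fold enrichment 4.19 to 4.65. The labels give the 2 inputs the same clone numbers as WT replicates 1 and 2, and use of an input in peak calling is not stated list by list in the sources used here. Its part in the widths was not tested. Widths are therefore also given as percentiles within each library, and WT replicate 3 is set against the 3 KO libraries. The promoter of ZBTB48 itself had a peak in all 6 libraries, so the mark there does not check the knockout. Of 9 osteoblast markers 4 had a peak in every library (RUNX2, COL1A1, SPARC and SPP1) and 5 in none. None of 7 blood cell markers had a peak in any library.

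All 10 genes carried H3K4me3 in every clone of both genotypes. A peak lay within 3 kb of the 5′ end of 10 of 10 genes in all 6 libraries, where 66.9% of all promoters had one in all 6, and in 60 of 60 pairs of gene and library the peak spanned the 5′ end. No gene had a peak in the 3 WT libraries and in no KO library, the pattern of 0.169% of promoters with a peak in all 3 WT. The number of genes with a peak was thus 10 ± 0 (SD, n = 3) in both genotypes. With equal counts in all 6 libraries the outcome of a two-sided exact permutation test is fixed, and it says nothing about the genotypes. No p under 0.1 is possible with 3 libraries per genotype. No call was near the threshold of the peak caller, since the lowest −log10 q among the 60 was 27.3, at ERAP2 in KO replicate 3. Calls fell away only when a fold enrichment of at least 4 was required, to 3 of 10 in WT replicate 3 and 4, 5 and 5 of 10 in the KO libraries, against 10 and 10 in WT replicates 1 and 2. Of all promoters with a peak, 97.6%, 98.0% and 58.1% kept one at that setting in WT and 64.3%, 73.8% and 78.2% in KO. That difference followed the kind of list, and the exact permutation p between genotypes was 0.4.

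Of the inducible catalytic subunits PSMB9 had the longest coverage and PSMB10 the shortest WT mean. PSMB9 (ENSG00000240065, 5′ end at base 32854192 of chromosome 6, plus strand), the subunit that replaces PSMB6, had 6001, 6001 and 3697 bp of its 6001 bp window under peaks in WT replicates 1, 2 and 3, and 3924, 2967 and 3019 bp in KO replicates 1, 2 and 3. WT replicates 1 and 2 filled the window, while WT replicate 3 fell below KO replicate 1 and the genotypes overlapped. The WT mean of 5233 ± 1330.2 bp exceeded the KO mean of 3303.3 ± 538.1 bp (SD, n = 3 each) by 1929.7 bp (two-sided exact permutation p = 0.2). PSMB8 (ENSG00000204264, base 32844047, minus strand), which replaces PSMB5, had 5467, 5191 and 2612 bp in WT and 3204, 1802 and 1733 bp in KO. Again WT replicate 3 lay below KO replicate 1 and above the other two KO clones. The difference was 2177.0 bp, from 4423.3 ± 1574.7 to 2246.3 ± 830.1 bp (SD, n = 3; exact permutation p = 0.2). PSMB10 (ENSG00000205220), which replaces PSMB7 and lies away from the other two at base 67936850 of chromosome 16, minus strand, had 3666, 3837 and 2295 bp in WT and 2424, 2077 and 1973 bp in KO. Its genotypes overlapped in the same way, with a difference of 1108 bp (3266 ± 845.2 against 2158 ± 236.2 bp, SD, n = 3; exact permutation p = 0.2).

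**Figure D1:**
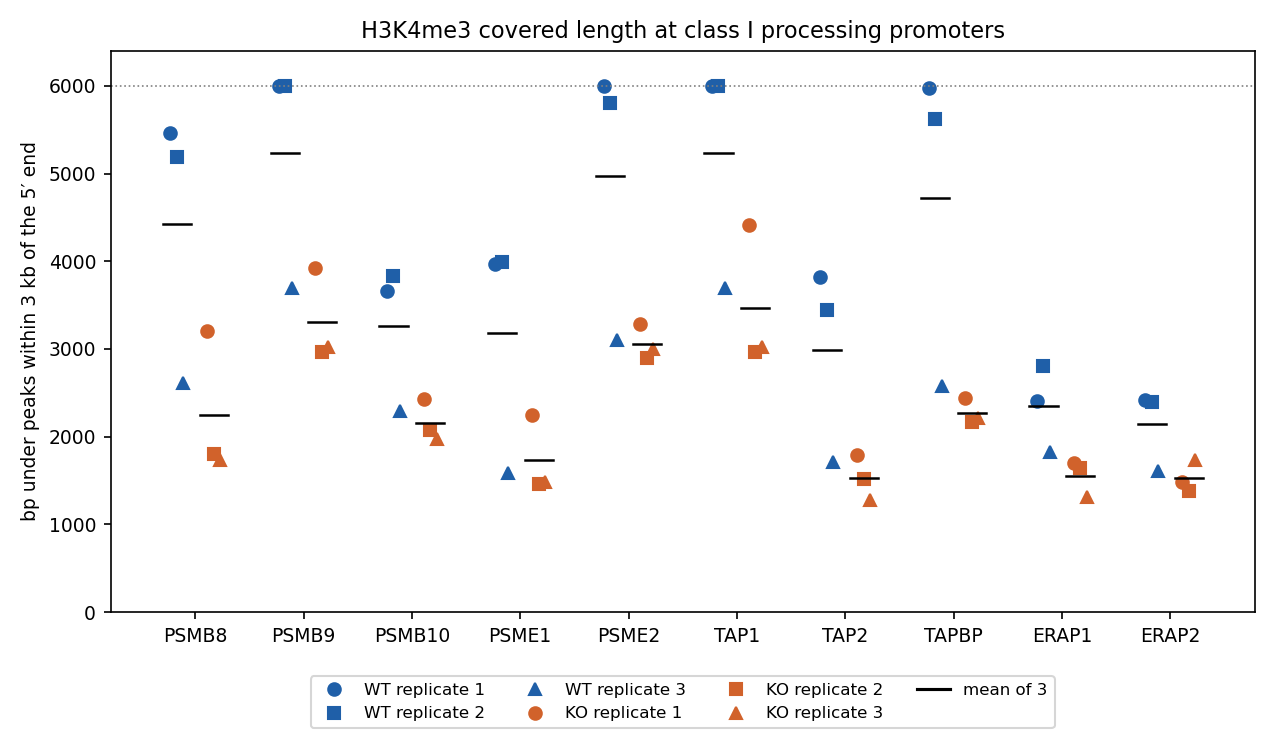
Length under H3K4me3 peaks (bp, vertical axis) within 3 kb of the 5′ end of each of the 10 genes, with 1 point per library (blue WT, orange KO), black bars for the mean of 3 libraries and a dotted line at the window length of 6001 bp. WT replicates 1 and 2 stand above the other 4 libraries at every gene, and WT replicate 3 lies among or close to the KO libraries.

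PSME1 and PSME2 encode the subunits of the ring that opens the proteasome to peptides, and their 5′ ends lie 10416 bp apart on chromosome 14. PSME1 (ENSG00000092010, base 24136194, plus strand) had 3969, 3990 and 1588 bp under peaks in WT and 2252, 1463 and 1488 bp in KO. WT replicate 3 fell well short of KO replicate 1. The difference of means was 1448.0 bp (3182.3 ± 1380.8 against 1734.3 ± 448.5 bp, SD, n = 3; exact permutation p = 0.2), and it was −146.3 bp when WT replicate 3 alone was set against the KO libraries. PSME2 (ENSG00000100911, base 24146610, minus strand) had 6001, 5803 and 3098 bp in WT and 3280, 2892 and 3003 bp in KO. The 4 libraries other than WT replicates 1 and 2 lay close together, from 2892 to 3280 bp. The difference was 1909.0 bp (4967.3 ± 1621.9 against 3058.3 ± 199.8 bp, SD, n = 3; exact permutation p = 0.2).

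The transporter genes and the gene of their loading partner differed among themselves. TAP1 (ENSG00000168394, base 32853704 of chromosome 6, minus strand) had 6001, 6001 and 3697 bp under peaks in WT and 4412, 2967 and 3019 bp in KO, with a difference of 1767 bp (5233 ± 1330.2 against 3466 ± 819.7 bp, SD, n = 3; exact permutation p = 0.2). These values are largely those of PSMB9, because the same peak covered both 5′ ends in every library. TAP2 (ENSG00000204267, base 32838739, minus strand) had 3822, 3440 and 1713 bp in WT and 1795, 1516 and 1277 bp in KO, narrower than TAP1 in each library. Its WT replicate 3 lay below KO replicate 1, and the difference was 1462.3 bp (2991.7 ± 1123.7 against 1529.3 ± 259.3 bp, SD, n = 3; exact permutation p = 0.2). TAPBP (ENSG00000231925, base 33314078, minus strand) had 5973, 5619 and 2577 bp in WT and 2442, 2166 and 2210 bp in KO. Here all 3 WT libraries stood above all 3 KO libraries, WT replicate 3 by 135 bp. The difference was 2450.3 bp (4723 ± 1866.9 against 2272.7 ± 148.3 bp, SD, n = 3), with an exact permutation p of 0.1 and a Benjamini-Hochberg adjusted p of 0.196 over all promoters.

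ERAP1 and ERAP2, which trim peptides to the length that class I molecules hold, had the lowest WT means. ERAP1 (ENSG00000164307, base 96807945 of chromosome 5, minus strand) had 2402, 2808 and 1827 bp in WT and 1698, 1642 and 1314 bp in KO. All 3 WT libraries were above all 3 KO libraries, WT replicate 3 by 129 bp, with a difference of 794.3 bp (2345.7 ± 492.9 against 1551.3 ± 207.4 bp, SD, n = 3; exact permutation p = 0.1; adjusted p = 0.196). ERAP2 (ENSG00000164308, base 96876500), which is 68555 bp away and transcribed in the opposite direction, had 2421, 2392 and 1613 bp in WT and 1486, 1379 and 1728 bp in KO. Its highest KO library, replicate 3, lay above WT replicate 3, and the difference was 611 bp (2142 ± 458.4 against 1531 ± 178.8 bp, SD, n = 3; exact permutation p = 0.2). Within their libraries both lay below the middle of all promoters, except ERAP2 in KO replicate 3. The covered length of ERAP1 stood at percentile 22.7, 34.3 and 41.1 in WT and 34.3, 41.9 and 25.7 in KO, counted among promoters with any coverage. The percentiles of ERAP2 were 23.2, 20.3 and 25.8 in WT and 20.4, 24.3 and 55.2 in KO.

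Among the 10 genes, 2 (TAPBP and ERAP1) had longer coverage in each WT library than in any KO library, a pattern found at 50.8% of the 14422 promoters with any coverage. Since WT replicate 3 had the lowest WT value wherever this held, the same 2 of 10 had WT replicate 3 above every KO library, against 54.4% of promoters. No gene showed the reverse order, which 0.111% of promoters did. KO replicate 1 was above WT replicate 3 at 7 of 10 genes, all but TAPBP, ERAP1 and ERAP2, and at 40.7% of all promoters. The count of 2 rested on those 2 libraries: without WT replicate 3 the 2 remaining WT libraries exceeded the KO libraries at 10 of 10 genes and at 90.9% of all promoters, and without KO replicate 1 the WT libraries did so at 9 of 10 genes and at 80.2% of promoters. The median difference of WT and KO means was 1614.7 bp over the 10 genes and 965 bp over all promoters. With WT replicate 3 alone against the KO libraries the median over the 10 was 207.3 bp. No promoter in the genome reached an adjusted p under 0.05 for covered length, its percentile or its fold enrichment percentile, which these numbers of libraries do not allow, and each of the 3 measures left 0 called, 0.00% of all tested.

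Percentiles within each library set a gene against the general width of its list, but may still carry the kind of list. Several genes ranked differently in WT replicates 1 and 2 than in WT replicate 3. By this measure 0 of 10 genes had all WT above all KO libraries and 0 of 10 the reverse, where 7.13% and 10.7% of promoters did. PSMB9 stayed among the widest promoters of every library, at percentile 99.1, 99.4 and 97.0 in WT and 97.9, 94.3 and 96.5 in KO. TAP1 had 99.1, 99.4 and 97.0 in WT and 99.0, 94.3 and 96.5 in KO. PSME2 had 99.1, 98.3 and 92.4 in WT and 94.6, 93.5 and 96.3 in KO. The lowest of these percentiles was thus 92.4, and these 3 genes were among the most broadly marked in both genotypes. PSMB8 ranged further, from 96.3, 95.5 and 82.3 in WT to 93.8, 53.2 and 55.5 in KO, and its KO replicate 1 lay with the WT libraries. TAPBP stood at 98.2, 97.7 and 81.0 in WT and at 78.5, 74.5 and 81.3 in KO, so that WT replicate 3 fell just below KO replicate 3 and the separation in bp was not present in rank (exact permutation p = 0.2). With a window of 1 kb the TAPBP percentile was higher in WT by 24.9 points (exact permutation p = 0.1). PSMB10 showed 62.3, 71.2 and 69.8 in WT and 78.0, 69.9 and 70.0 in KO, the only gene besides ERAP1 and ERAP2 with a higher KO mean. TAP2 (67.4, 58.2 and 32.6 in WT, 41.8, 32.8 and 23.4 in KO) and PSME1 (72.1, 75.6 and 24.3 in WT, 70.4, 29.4 and 37.7 in KO) also ranged widely between clones. The median of the 10 differences was 2.07 percentile points, against −0.27 over all promoters. With a window of 1 kb it was −6.40, although the median difference in covered length there was 316.2 bp. At TAP1 the percentile difference at 1 kb was −16.8 (exact permutation p = 0.1), with a covered length difference of 0 bp. A lower rank in WT at that window therefore need not mean shorter coverage.

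Fold enrichment, ranked within each list and taken from the highest peak near each gene, did not separate the genotypes either, at 0 of 10 genes in both directions (4.66% of promoters had WT above KO and 7.79% the reverse). For the peak shared by TAP1 and PSMB9 the percentiles were 56.7, 64.2 and 2.13 in WT and 7.81, 5.45 and 7.97 in KO. For PSME2 they were 72.0, 69.6 and 3.21 in WT and 13.7, 15.5 and 13.1 in KO. These wide domains thus ranked low in fold enrichment in the 4 lists of narrow peaks and above the middle in the other 2. PSME1 followed them, with 72.0, 67.9 and 14.3 in WT and 19.1, 20.9 and 19.9 in KO, and so did TAPBP, with 61.2, 60.6 and 21.1 in WT and 24.7, 30.6 and 31.2 in KO. PSMB10 had 92.0, 79.7 and 38.0 in WT and 31.7, 43.7 and 45.3 in KO. At the remaining genes the 2 kinds of list lay closer together. PSMB8 had 56.7, 64.2 and 41.8 in WT and 50.2, 42.4 and 36.8 in KO, and TAP2 had 81.2, 60.9 and 53.4 in WT and 66.2, 61.6 and 71.5 in KO. ERAP1, with 82.5, 71.8 and 66.2 in WT and 73.3, 70.3 and 88.3 in KO, ranked high in every library despite its short domain. ERAP2 had 55.6, 58.6 and 71.7 in WT and 71.6, 67.0 and 53.2 in KO. In WT replicates 1 and 2 width and fold enrichment of all peaks in a list rose together (Spearman rho = 0.803 in both), and in the other 4 lists rho was −0.108 to 0.0512. These are correlations across the peaks of 1 list, which are not independent replicates. The fold enrichments themselves are therefore not compared between lists at single genes, and ranks of WT replicates 1 and 2 carry the same difference of kind.

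The class I genes of chromosome 6 shared peaks. In WT replicate 1 a single peak of 16927 bp, chr6:32841581-32858507, covered the 5′ ends of PSMB8, TAP1 and PSMB9. In WT replicate 2 a single peak of 15785 bp, chr6:32841857-32857641, did the same. In WT replicate 3 and the 3 KO libraries PSMB8 had a peak of its own, and TAP1 and PSMB9 shared 1 of 3697, 4529, 2967 and 3019 bp. TAP2, 5308 bp from PSMB8, shared its peak with none of the other 9 genes in any library, but the peak also covered the 5′ end of ENSG00000250264, 83 bp away, in all libraries except KO replicate 3. Counted over 21454 bp from 3 kb beyond TAP2 to 3 kb beyond PSMB9 (chr6:32835739-32857192), peaks covered 89.8%, 87.5% and 37.4% in WT and 44.4%, 29.3% and 28.1% in KO. That is 15357.7 ± 6357.8 bp per WT library against 7280.7 ± 1950.5 bp per KO library (SD, n = 3 each), with overlapping genotypes (exact permutation p = 0.2). PSMB8, TAP1 and PSMB9 are therefore not separate observations in WT replicates 1 and 2, and TAP1 and PSMB9 are not in any library.

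**Figure D2:**
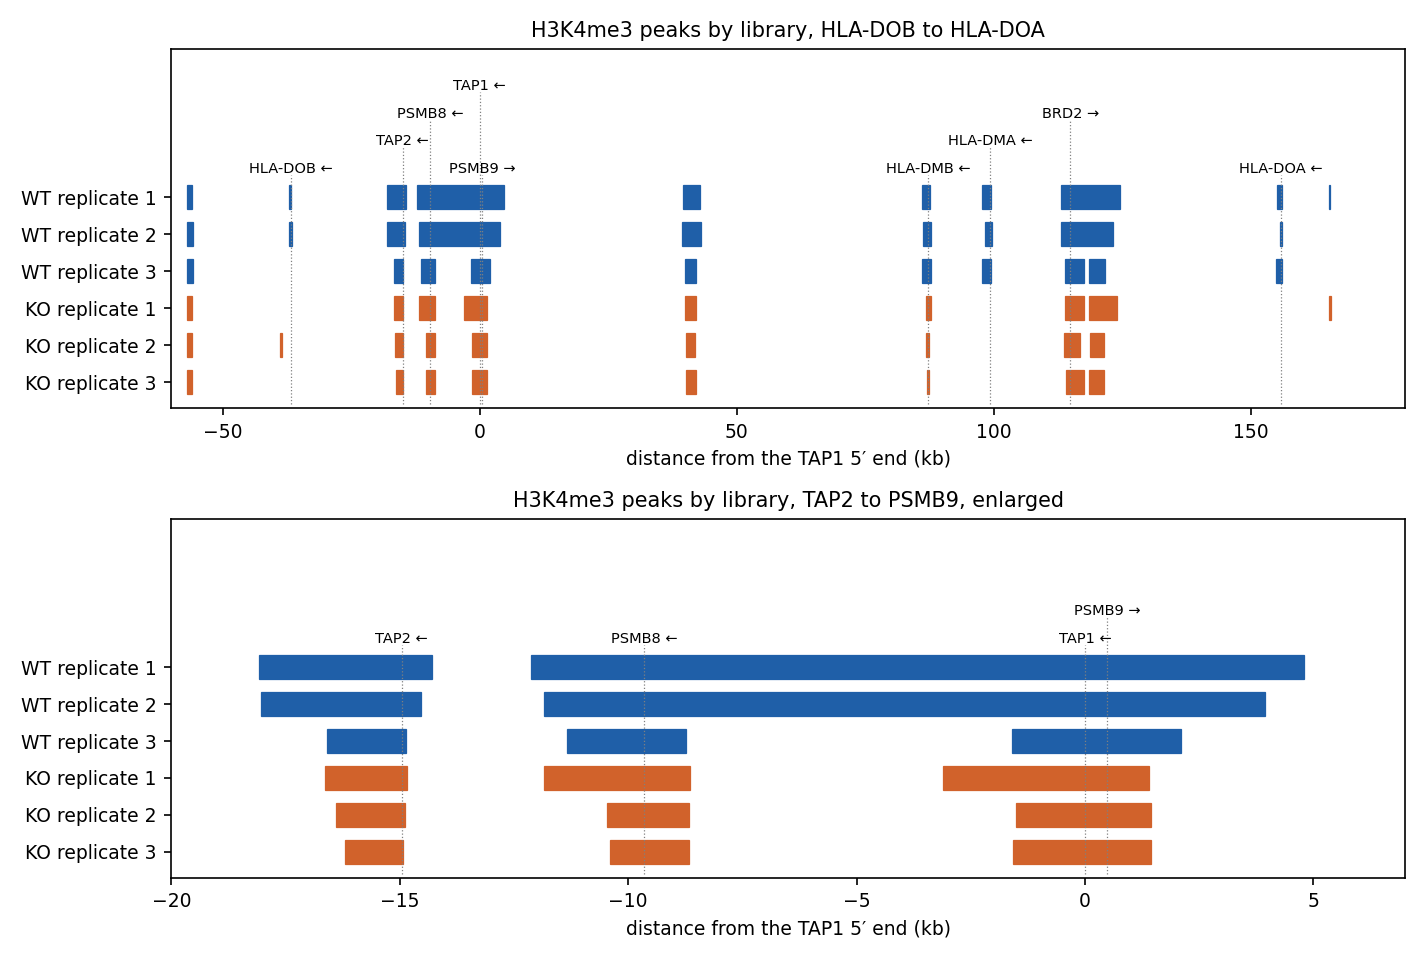
Peaks in each library (rows, blue WT and orange KO) against the distance in kb from the TAP1 5′ end, from HLA-DOB to HLA-DOA above and from TAP2 to PSMB9 enlarged below, with dotted lines at 5′ ends and arrows for the direction of transcription. A peak stands at TAP2, PSMB8, TAP1 and PSMB9 in all 6 rows, and peaks at HLA-DMA and HLA-DOA stand in the 3 WT rows alone.

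The other genes shared peaks with neighbours outside the pathway. In WT replicate 1 a peak of 15209 bp covered PSME1, PSME2 and the genes EMC9 and RNF31 between and beside them. In WT replicate 2 PSME1 (7326 bp, with EMC9) and PSME2 (5932 bp, with RNF31) were apart, and in the other 4 libraries PSME1 stood alone while PSME2 kept RNF31, 888 bp away. The TAPBP peak ran upstream over ZBTB22 and DAXX in WT replicates 1 and 2, with 13318 and 13053 bp, and covered TAPBP alone in the other 4 libraries, with 2577 bp in WT and 2442, 2166 and 2210 bp in KO. PSMB10 shared its peak with ENSG00000261884, 1209 bp away, in all 6 libraries, and ERAP1 and ERAP2 shared theirs with no gene. In all, 8, 8 and 5 of the 10 genes in WT and 5, 5 and 4 in KO had a peak that also covered another protein-coding 5′ end. Over all promoters the shares were 22.5%, 22.4% and 20.5% in WT and 20.4%, 20.2% and 20.2% in KO.

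**Figure D3:**
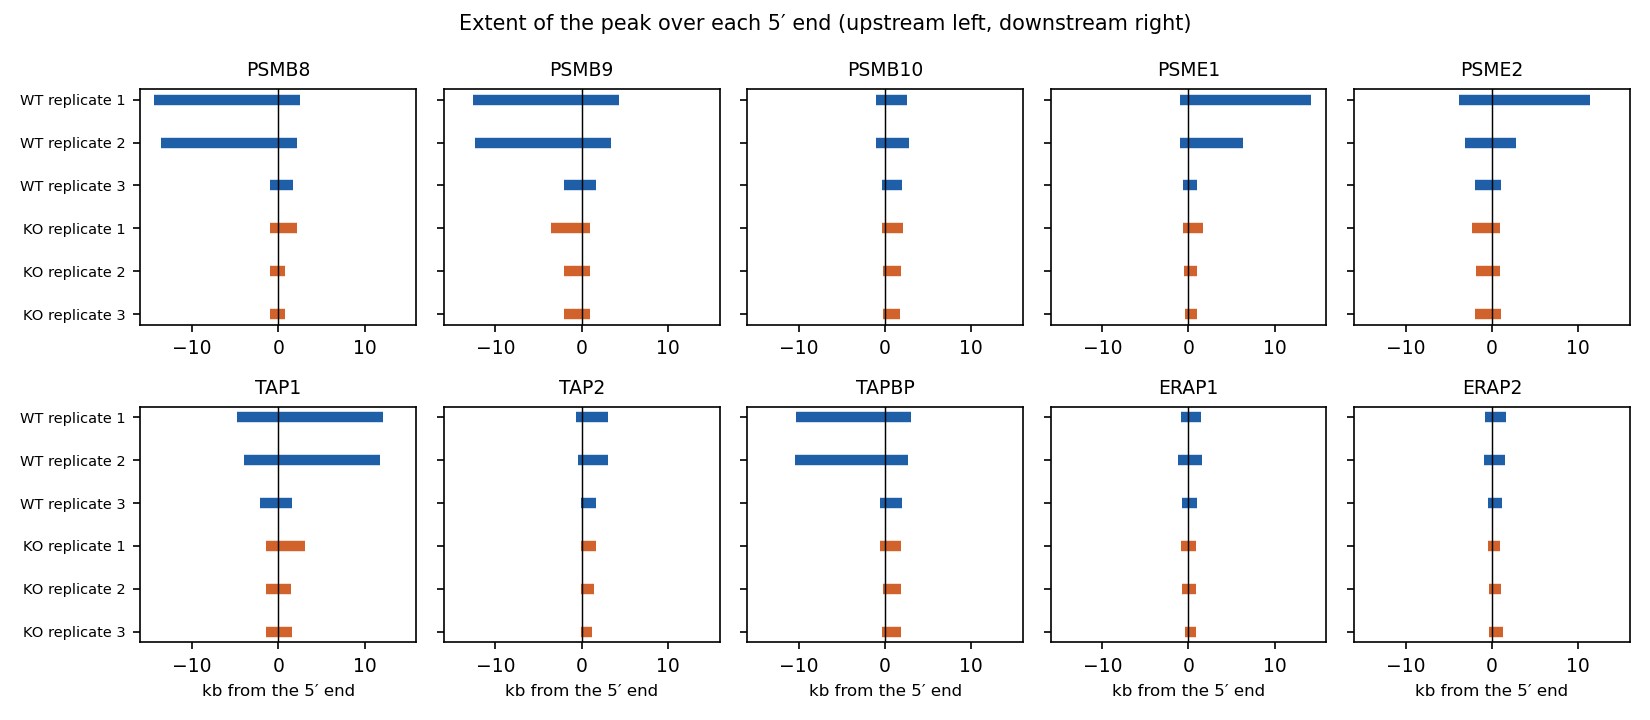
Extent in kb of the peak over the 5′ end of each gene (panels), upstream to the left and downstream to the right, in each library (rows, blue WT and orange KO). The long peaks of WT replicates 1 and 2 run upstream of TAPBP, PSMB8 and PSMB9 and downstream of TAP1, PSME1 and, in WT replicate 1, PSME2, while the peaks of ERAP1, ERAP2 and PSMB10 are wider in those 2 rows but stay within 3 kb of the 5′ end.

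As at most promoters, peaks mostly reached further into the gene than upstream of it. This held for 42 of the 60 pairs of gene and library, 7, 6 and 7 of 10 genes in WT and 8, 7 and 7 in KO, where such a peak was found at 78.2%, 76.6% and 76.7% of promoters in WT and 74.9%, 76.6% and 76.8% in KO. TAP2 was the most one-sided in the narrow lists. In KO replicate 3 its peak of 1277 bp began 49 bp upstream of the 5′ end and ran 1227 bp downstream. PSMB9 was reversed, with 2086 bp upstream and 1610 bp downstream in WT replicate 3 and 2003 bp and 963 bp in KO replicate 2, its upstream side being the start of TAP1. PSME2 was also reversed in every library except WT replicate 1. A peak shared by several of the genes is counted once for each of them.

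The surrounding class II genes were less uniformly marked. HLA-DMA, which helps load class II peptides, had 1782, 1305 and 1825 bp under peaks in WT and 0, 0 and 0 bp in KO (exact permutation p = 0.1). HLA-DMB, its partner, 86836 bp from PSMB9, had 1547, 1576 and 1613 bp in WT and 953, 715 and 519 bp in KO (exact permutation p = 0.1). On the TAP2 side HLA-DOB, also a class II loading gene, had 520, 562 and 0 bp in WT and 0, 460 and 0 bp in KO, and the genotypes overlapped (exact permutation p = 0.4). The peaks in WT replicates 1 and 2 covered its 5′ end. That in KO replicate 2, chr6:32814778-32815237, lay inside the gene and did not. HLA-DQB1, a class II chain, kept a peak in every library, with 2440, 2243 and 2048 bp in WT and 1995, 1926 and 551 bp in KO. CIITA had 3471, 3318 and 2837 bp in WT and 0, 1275 and 0 bp in KO. Of 10 class II genes 10, 8 and 9 had a peak in WT and 3, 5 and 2 in KO, where the 5 include HLA-DOB. The number of class II genes with a peak did not overlap between the genotypes (two-sided exact permutation p = 0.1, the lowest 3 against 3 allows). The test was chosen after the counts had been seen and the list with earlier results known, so this p gives no support. Of all 20033 promoters, 13910, 13858 and 13942 had a peak in WT and 14006, 13704 and 13734 in KO, and these numbers overlapped. The count of the 10 class I processing genes was 10 in every library and leaves no room for a test of the difference between the lists. Where a list has no peak, the mark fell short of the threshold at that depth, and lower levels of it may be present. Reads that map to several places had been dropped by the authors, which bears on the HLA genes more than on the others.

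The inducible catalytic subunits were set beside the constitutive ones they replace. PSMB5 had 2268, 2150 and 1426 bp under peaks in WT and 1599, 1308 and 1335 bp in KO. PSMB6 had 2387, 2729 and 1551 bp in WT and 2012, 1057 and 968 bp in KO, and PSMB7 had 2000, 2037 and 1349 bp in WT and 1347, 1168 and 1052 bp in KO. The inducible member of each pair had the longer covered length in 6 of 6 libraries. The excess was 1910 to 3614 bp for PSMB9 over PSMB6, 398 to 3199 bp for PSMB8 over PSMB5, and 909 to 1800 bp for PSMB10 over PSMB7. Both windows have the same length, but the inducible subunits share peaks with neighbours. The excess at PSMB9 includes the part of the peak at TAP1. The PSMB8 peak also covered TAP1 and PSMB9 in WT replicates 1 and 2, and the PSMB10 peak covered ENSG00000261884 in every library. The peaks of PSMB5, PSMB6 and PSMB7 covered no other protein-coding 5′ end. Long coverage was not confined to the inducible subunits. Over 11 other constitutive core subunits, which are not catalytic, the median was 4288, 3917 and 2539 bp in WT. In KO it was 2425, 2256 and 2158 bp. These medians lay above PSMB10 and below PSMB9 in every library. The excess of PSMB9 over PSMB6 was 3614, 3272 and 2146 bp in WT (mean 3010.7 bp) and 1912, 1910 and 2051 bp in KO (mean 1957.7 bp). All WT libraries were above all KO libraries (exact permutation p = 0.1), WT replicate 3 only narrowly. The covered length of PSMB9 itself overlapped between genotypes. In covered length 50.8% of single promoters had this order, and no such share was computed for differences between 2 genes. The other 2 pairs overlapped between genotypes (exact permutation p = 0.2 each).

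**Figure D4:**
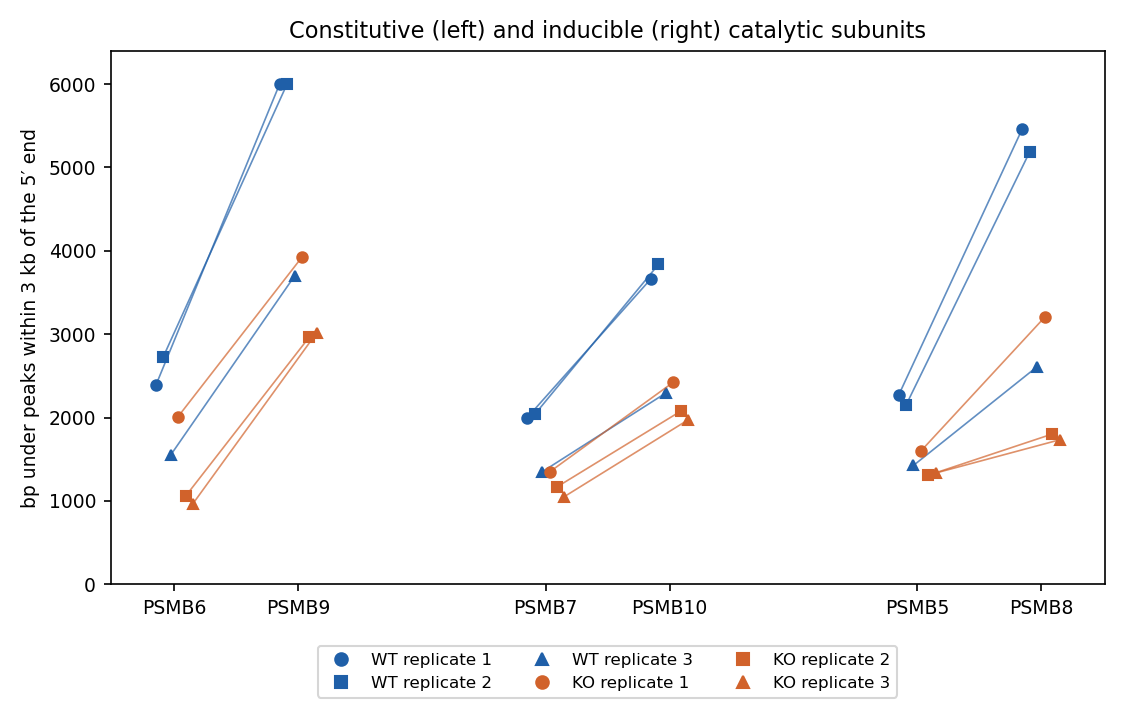
Length under H3K4me3 peaks (bp, vertical axis) within 3 kb of the 5′ end of each constitutive catalytic subunit (left of each pair) and the inducible subunit that replaces it (right), with 1 line per library (blue WT, orange KO). Every line rises to the right, and the lines of PSMB8 in KO replicates 2 and 3 are the flattest.

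Most other genes of the pathway were marked in every library. Of 38 genes in lists of constitutive core subunits, proteasome assembly factors and regulators, other peptidases, endoplasmic reticulum chaperones, class I molecules and their transactivators, 37 had a peak in all 6 libraries. The exception was NPEPPS, a cytosolic aminopeptidase, with 325, 320 and 266 bp in WT and 249, 0 and 238 bp in KO. In bp 22 of 38 had all WT above all KO libraries (50.8% of all promoters), and in percentile 3 had WT above KO (7.13%) and 7 KO above WT (10.7%). The 3 were PSMA6, a core subunit (80.1, 82.6 and 78.5 in WT, 49.1, 57.8 and 73.2 in KO), PSME4, a proteasome activator (92.6, 89.2 and 95.7 in WT, 89.2, 79.7 and 64.4 in KO), and NPEPPS. Among the 7 were PSMB5 (19.4, 14.8 and 15.4 in WT, 27.3, 20.1 and 27.0 in KO), PSMA1, another core subunit (70.6, 79.2 and 81.8 in WT, 82.7, 87.6 and 91.8 in KO), and CALR, a chaperone of class I molecules (79.8, 65.7 and 86.4 in WT, 87.5, 89.1 and 93.5 in KO). HLA-B, a class I heavy chain, had percentiles of 60.1, 64.3 and 82.8 in WT and 84.2, 88.0 and 91.7 in KO. B2M, the light chain, had 85.5, 87.5 and 80.6 in WT and 88.3, 93.7 and 94.6 in KO. IRF1, a transcription factor of the interferon response, had 79.0, 87.0 and 91.9 in WT and 96.6, 94.8 and 96.1 in KO. NLRC5, the class I counterpart of CIITA, overlapped, with 6001, 6001 and 2558 bp in WT and 2573, 2486 and 2456 bp in KO. For each of these genes with separated percentiles the exact permutation p was 0.1 and the adjusted p 0.56.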

How the data were processed

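H3K4me3 ChIP-seq was carried out by the authors on 3 WT and 3 ZBTB48 KO clones of U2OS treated with IFNγ. Per the study's methods, paired-end reads were trimmed with Trimmomatic and aligned to GRCh38 with Bowtie2 2.3.5.1, multimapping, unmapped and duplicate reads were removed, and broad peaks were called with MACS2 2.1.1.2 on each library separately. The deposited lists give for each peak its position, a score (an integer for display, not used here), the fold enrichment ratio over background, and −log10 p and −log10 q, each averaged by the authors' peak caller over the peak. Medians over a list describe the kinds of list. For single genes these values served only to rank or filter peaks within a list, and the ranks of fold enrichment were then compared between genotypes. No list holds read counts, so the authors' comparison of reads could not be rerun and no counting interval could be given.

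Groups and replicate numbers are those of the labels. Peaks were placed in windows of 3 kb on either side of the MANE Select 5′ end (GENCODE release 44; 19061 of 20033 genes had such a transcript and the others used the canonical one), with an overlap of at least 1 bp. Covered length is the bp of the 6001 bp window under peaks, and percentiles are mid-ranks among the promoters covered in the same library. A promoter without a peak in a library was given a covered length percentile of 0 there. Genotypes were compared for each promoter by two-sided exact permutation over the 20 assignments of the 6 libraries. Benjamini-Hochberg adjustment ran over 14422 promoters with any coverage. For the fold enrichment percentile it ran over the 13399 with a peak in all 6 libraries. The number of the 10 genes with a peak per library was compared in the same way, and no p was computed for their covered lengths as a group. Promoter sequences were those of RefSeq on GRCh38.p14, and all 10 genes had a RefSeq start that matched. The 10 genes, all other gene lists and the motifs were chosen with earlier results of these data known. All 10 genes were to be named with every value, and genes of the other lists where they lacked a peak in some library or where their WT and KO percentiles did not overlap. Beside these, constitutive subunits, CIITA, ZBTB48 and class II genes were named next to a result they touch. The value of 1 listed gene is not reported here, while the counts over its list include it. NLRC5 was added after its values had been seen. The steps were tested on simulated lists and run in Python 3.11.15 with numpy 2.4.6, scipy 1.17.1 and matplotlib 3.10.9.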

Additional observations from a re-analysis of the deposited data

How the results depend on the processing

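All differences are WT minus KO. Calls of the 10 genes were the same under every alternative except a fold enrichment of at least 4, where 3 fewer genes on average were called in KO and p was 0.4 by exact permutation with n = 3 per genotype. The number of genes with all WT above all KO libraries was 1 with a fold enrichment of at least 4 (31.7% of promoters) and 2 to 10 when each library was left out, 10 without WT replicate 3 (90.9% of promoters) and 9 without KO replicate 1 (80.2%). The median difference in covered length was 316.2 bp with a window of 1 kb and 207.3 bp for WT replicate 3 against the 3 KO libraries, and leaving out a library gave 1218.8 to 2390.1 bp. The median difference in percentile was −6.40 with a window of 1 kb and 32.0 with a fold enrichment of at least 4. In the latter, genes that had lost their call counted as percentile 0. All of those calls were lost in WT replicate 3 and the KO libraries, so the 32.0 reflects lost calls as well as rank.

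Of 150 differences of single genes in covered length under the alternatives, 148 kept their sign, that of TAP1 was 0 bp with a window of 1 kb, and that of PSME1 was −146.3 bp for WT replicate 3 against the KO libraries. Many were far smaller with a window of 1 kb, at 19.7 bp for PSME2, 55.7 bp for PSMB9 and 132 bp for PSMB8, and PSME2 was at 39.7 bp for WT replicate 3 against the KO libraries. Differences in percentile changed sign more often. With a window of 1 kb they were −16.8 for TAP1, −1.58 for TAP2, −8.17 for PSMB8, −7.82 for PSMB9, 26.2 for PSMB10, −6.39 for PSME1, −11.1 for PSME2 and 4.15 for ERAP1. With a fold enrichment of at least 4, the covered length percentile was −14.0 for PSMB8, which had no call in WT replicate 3. The fold enrichment percentile at that setting was 0.99 for TAP2 and 3.86 for ERAP2. For WT replicate 3 against the KO libraries the covered length percentile was −0.037 for TAP2, −21.5 for PSME1, −2.40 for PSME2 and 7.14 for ERAP1. The fold enrichment percentile there was −4.95 for TAP1 and PSMB9, −7.74 for TAPBP, −1.36 for PSMB8, −2.22 for PSMB10, −5.63 for PSME1, −10.9 for PSME2 and 7.81 for ERAP2. Leaving out a library gave covered length percentiles of −5.47 to 3.72 for ERAP1 and −16.7 to 0.77 for ERAP2, and fold enrichment percentiles of −9.28 to 4.64 for TAP2, −8.31 to 1.69 for ERAP1 and −7.34 to 1.89 for ERAP2. The causes were not tested.

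No pairing by replicate number was seen. The deviations of same-numbered libraries in covered length correlated at 0.00634, −0.0347 and 0.0795, and those of differently numbered libraries at −0.0976 to 0.101. The WT deviations also hold the difference between the kinds of list, so these correlations cannot settle whether samples were paired. The replicate number was also used as a block, by exact sign flips of the 3 pairs. Every gene except ERAP2 then had a sign-flip p of 0.25 in covered length, the smallest that this test can give. For ERAP2 the sign-flip p was 0.5. The difference at TAPBP stayed at 2450.3 bp, and no call changed. The study gives a range of reads obtained per sample, but not the number kept in each library. That number is unknown here and limits what a missing peak can mean.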
